A study of Mus musculus with 30 samples.

Results

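A set of 51 genes, here called peaking genes, had more RNA 24 h after mouse pluripotent cells left 2i/LIF than at 0 or 48 h. The 36 h timepoint and those after 48 h did not enter the choice. Of the 7 timepoints, 24 h was the highest in 47 of the 51 genes. This is a description, because the choice required 24 h to exceed 0 and 48 h in all 51 genes. They were chosen by 3 of their own values, an expression of at least 10 FPKM at 24 h that was also at least 2 times the value at 0 h and at least 2 times the value at 48 h. FPKM is a count of sequenced fragments scaled to transcript length and library size. Of the 22477 genes measured, 6554 reached 10 FPKM at 24 h, and the 51 genes are 0.778% of these. Dnmt3l, Slc37a1, Zfp423 and Zfp459 met the same 3 thresholds and were left out by name.

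The measurements are RNA-seq of polyadenylated RNA from 30 samples, which form 15 conditions with 2 replicates each. All cells were secondary induced pluripotent stem cells (iPSCs) that carry OSKM (Oct4, Sox2, Klf4 and cMyc) transgenes inducible by doxycycline (dox), a GFP in place of 1 allele of Nanog under its own promoter, and constitutive nuclear RFP. They were kept on CF1 mouse embryonic fibroblasts (MEFs) in serum with LIF, moved to 2i/LIF, and then differentiated in N2B27 without 2i and LIF for 0, 24, 36, 48, 60, 72 or 96 h. In the other 8 conditions, cells differentiated for 0, 24, 48 or 96 h were re-seeded in serum/LIF for 48 h, some left without the drug (–dox) and others given dox at 2 µg/ml to induce OSKM (+dox). The methods describe gelatin before withdrawal and CF1 MEFs at re-seeding for the colony assay, and do not say whether the cells for RNA-seq were grown in the same way. The reporting summary of the paper calls replicates biological for its experiments in general, and the labels do not say whether they were separate cultures.

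For every gene the deposited table gives a single value in each condition that merges the 2 replicates. No spread, interval or test could therefore be had for any difference below. A gene was counted as higher or lower when the ratio of 2 values was 2-fold or more and the larger one reached 1 FPKM, and each count of the 51 genes is read beside the share of all genes that met the same criterion. The RNA is from bulk cultures, in which fewer expressing cells and less RNA per cell cannot be told apart. The total per condition lay between 603278 and 832607 FPKM, with 2756 to 5090 genes at 0, and median-ratio factors computed on 14518 genes spanned 0.990 to 1.03.

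As background, 2i is a pair of inhibitors of the MEK/ERK and GSK3 kinases that, with the cytokine LIF, holds mouse pluripotent cells in a naive state like that of the preimplantation epiblast. When both are removed, ERK signalling starts, factors of the naive network such as Nanog and Klf4 are lost, and cells pass through a formative state marked by Otx2, Pou3f1, Fgf5 and the DNA methyltransferases before they take on lineage fates. The summed level of 10 naive genes was 1274, 518, 71.9, 86.9 and 39.1 FPKM at 0, 24, 60, 72 and 96 h, and that of 7 formative genes was 37.9, 357, 645 and 195 FPKM at 0, 24, 36 and 96 h. Nanog itself was at 227, 46.5 and 6.45 FPKM at 0, 24 and 48 h and above its 48 h value at 60 and 72 h, with 21.7 and 38.9 FPKM.

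The summed level of 11 fibroblast markers, which feeder cells would carry, was 1517 and 389 FPKM at 0 and 24 h and lay between 155 and 277 FPKM later in the course, and 10 of the 11 were lower at 24 h than at 0 h. In the re-seeded cells the sum ran from 216 to 650 FPKM. Of 408 FPKM in 0 h –dox, Sparc made up 210 FPKM and Fn1 188 FPKM. Col1a1, Col1a2, Col3a1, Dcn and Postn, which were at 71.0 to 229 FPKM at 0 h, lay between 0.0908 and 1.45 FPKM there. Of these markers, 10 were above 0 in all 15 conditions and Lum was at 0 in some. The part of fibroblast RNA in the levels of the 51 genes was not tested.

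At 24 h the 51 genes had a median of 24.9 FPKM, from 10.1 FPKM for Steap1 to 366 FPKM for Rpl39l. Their medians at 0 and 48 h were 7.39 and 7.76 FPKM. These 3 conditions chose the genes, so the values describe them and are no finding. The genes with the largest ratio of the 24 h value to the higher of the 0 and 48 h values were Spink3 at 5.62, Enox1 at 4.97 and Gm17210 at 4.87. The genes nearest to the edge of the rule show how it cut. On the level at 24 h, Steap1 (10.1 FPKM), RP23-152O2.3 (10.4 FPKM) and Spink3 (10.4 FPKM) lay just inside and Ascl2 (9.79 FPKM), Nlrp4f (9.40 FPKM) and Rab27a (9.20 FPKM) just outside. On the ratio of 24 h to 0 h, Rpl39l (2.01), Ncoa4 (2.06) and Gm10324 (2.12) lay inside and Xlr4a (1.97), Angptl4 (1.96) and Gm13051 (1.95) outside. On the ratio of 24 h to 48 h, Aire (2.02), Akr1b8 (2.05) and Foxd3 (2.07) lay inside and L3mbtl2 (1.999), Gm19705 (1.99) and Ddhd2 (1.97) outside.

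**Figure D1:**
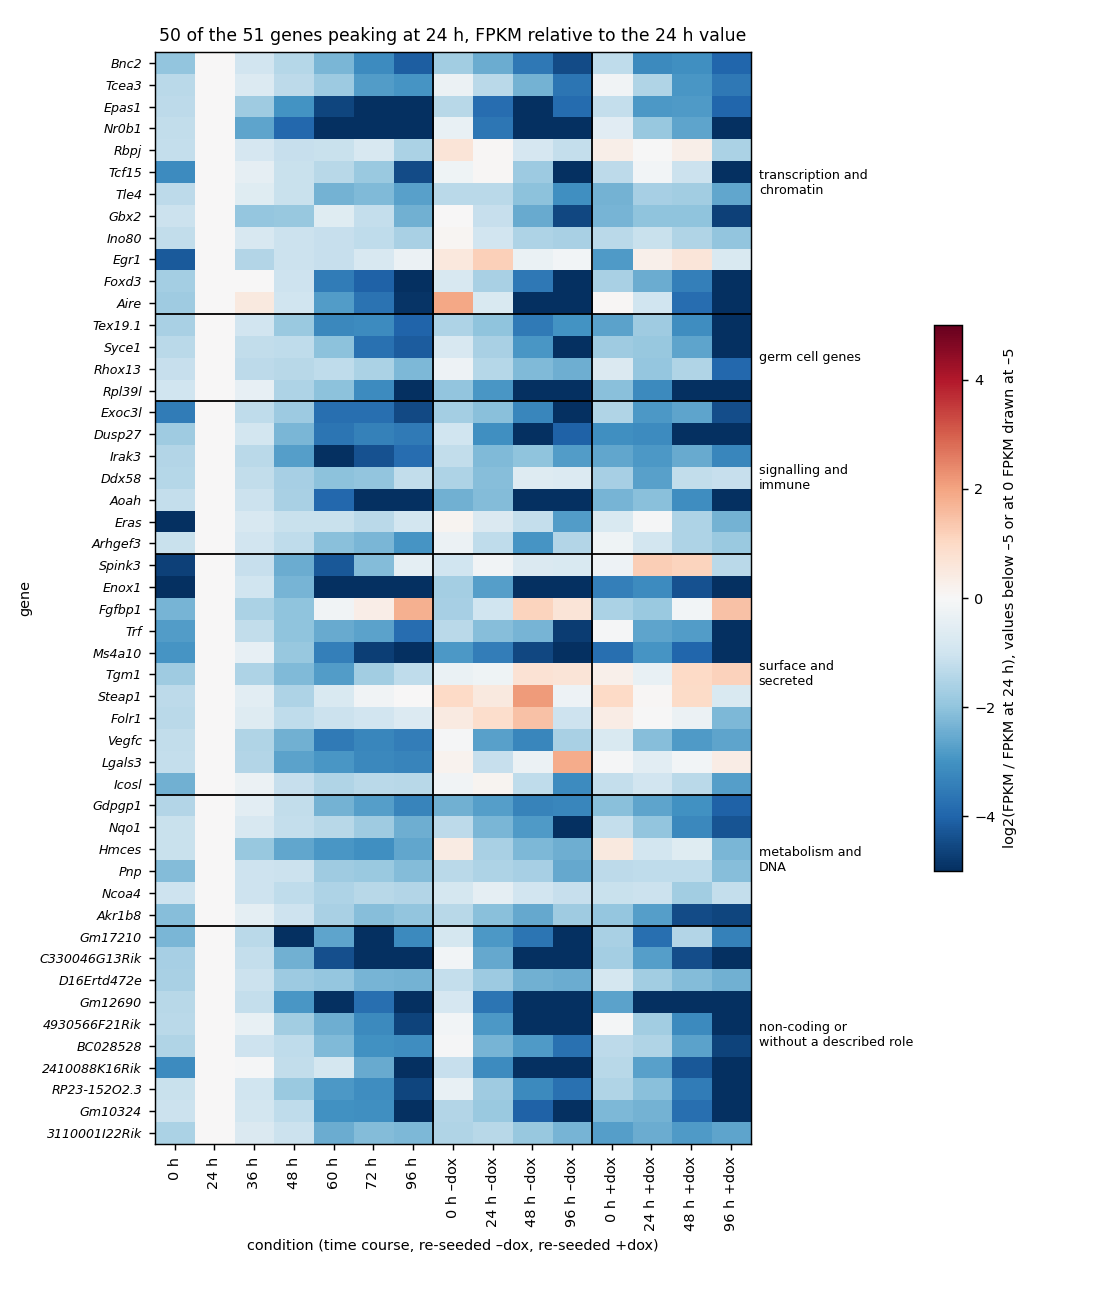
Each row is 1 of 50 of the 51 genes and each column 1 of the 15 conditions, and the colour is the log2 ratio of the FPKM to that gene's FPKM at 24 h of 2i/LIF withdrawal, with blue for lower and red for higher and with values under −5 or at 0 FPKM drawn at −5. The 24 h column is 0 by construction, most rows turn blue towards 96 h, and red cells stand mainly among the surface and secreted genes re-seeded in serum/LIF.

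The genes have varied functions. Of 30 gene lists of pathways and cell states, 5 held any of the 51 genes and 7 of the genes were in a list. The list of formative and primed pluripotency held 3 (Foxd3 and Tcf15 among them) of its 16 genes at 10 FPKM, naive pluripotency 2 (Gbx2 and Nr0b1) of 14, ERK feedback 1 (Egr1) of 13, immediate early genes 1 (Egr1) of 9 and Fgf ligands and receptors 1 (Fgfbp1) of 4. The other 25 lists, among them Notch, Wnt, Nodal, p53, cholesterol, interferon and germline genes, held 0. The lists are short, with 12 to 23 genes each, so a 0 does not mean that the set has no gene of that kind. Rbpj, the DNA-binding effector of Notch, Ddx58, a sensor of viral RNA, and the germ cell genes described below are in none of the lists. For the description below the 51 genes were sorted by known role into 13 of transcription and chromatin, 4 of germ cells, 7 of signalling and immunity, 11 at the cell surface or secreted, 6 of metabolism and DNA, and 10 that are non-coding or have no described role given here. This sorting was made after the values were seen, as was the choice to name 12 genes that the naming rule does not cover (2410088K16Rik, 3110001I22Rik, Aoah, Arhgef3, Eras, Gdpgp1, Ino80, Nqo1, Pnp, Rbpj, Rhox13 and Tle4).

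Of the 51 genes, 47 have a position in Gencode M21 on mm10, where 44 are protein-coding, 2 antisense and 1 a lincRNA. Of these 47, 4 lie on chromosome X (Eras, Nr0b1 and Rhox13 among them), which is 8.51% against 3.12% of all genes with at least 10 FPKM at 24 h. The promoters held fewer CpGs than those of genes with at least 10 FPKM at 24 h and were near all genes of the table in this respect, and neither difference was tested. RefSeq promoter sequences of GRCm38.p6, from 250 bases before to 50 after the start, were matched for 38 of the 51 genes. Among the other 13 are 4930566F21Rik, Egr1, Epas1, Exoc3l, Folr1, Gbx2, Gm12690, Gm17210, RP23-152O2.3, Spink3, Tcf15 and Trf. The median CpG count of the 38 was 14, against 22 for 5309 genes with at least 10 FPKM at 24 h and 16 for 16022 genes of the table. At most 5 CpGs were found in 11 of the 38 (28.9%, against 4.99% and 23.2%), among them Bnc2, C330046G13Rik and Ms4a10 with 0. At least 25 were found in 10 of the 38 (26.3%, against 40.5% and 28.1%), with Enox1 and D16Ertd472e at 42. Of 36 of these promoters whose gene has a Gencode M21 position, 6 (Arhgef3, Bnc2, Gm10324, Lgals3, Pnp and Rbpj) use a RefSeq start more than 1000 bases from the Gencode start of the gene. Among these 6, Bnc2 with 0 CpGs and Gm10324 with 3 are in the group with at most 5 CpGs. C330046G13Rik has no Gencode M21 position to compare its start with. Both limits on the CpG count were set after the values were seen. The 250 bases upstream of 4 genes are shown, chosen after the values were seen, because they span the range from many CpGs to none. CpGs are in capitals, and each sequence runs 5′ to 3′ on the gene's strand up to the base before the start.

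Enox1 (chr14:77156513-77156762, plus strand, 33 CpGs): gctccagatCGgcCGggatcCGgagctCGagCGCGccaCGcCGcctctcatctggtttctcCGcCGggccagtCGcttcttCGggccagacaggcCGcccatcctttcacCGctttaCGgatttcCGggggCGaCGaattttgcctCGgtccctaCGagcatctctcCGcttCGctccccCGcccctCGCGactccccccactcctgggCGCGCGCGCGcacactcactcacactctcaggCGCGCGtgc

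Tex19.1 (chr11:121145893-121146142, plus strand, 15 CpGs): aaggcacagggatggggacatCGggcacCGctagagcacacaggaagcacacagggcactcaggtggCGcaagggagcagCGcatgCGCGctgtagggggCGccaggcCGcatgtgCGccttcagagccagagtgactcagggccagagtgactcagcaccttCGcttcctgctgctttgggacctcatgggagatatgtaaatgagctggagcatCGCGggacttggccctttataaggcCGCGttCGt

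C330046G13Rik (chr10:84553339-84553588, minus strand, 0 CpGs): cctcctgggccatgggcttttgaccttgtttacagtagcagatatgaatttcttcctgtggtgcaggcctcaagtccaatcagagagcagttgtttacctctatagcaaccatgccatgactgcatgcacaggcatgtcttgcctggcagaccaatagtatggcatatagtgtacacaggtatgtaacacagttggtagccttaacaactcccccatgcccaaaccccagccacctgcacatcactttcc

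Ms4a10 (chr19:10974701-10974950, minus strand, 0 CpGs): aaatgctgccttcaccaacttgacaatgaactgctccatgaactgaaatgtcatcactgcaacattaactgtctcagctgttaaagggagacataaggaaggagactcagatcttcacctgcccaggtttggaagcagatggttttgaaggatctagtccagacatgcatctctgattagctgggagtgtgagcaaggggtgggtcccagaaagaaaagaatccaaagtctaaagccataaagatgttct

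**Figure D2:**
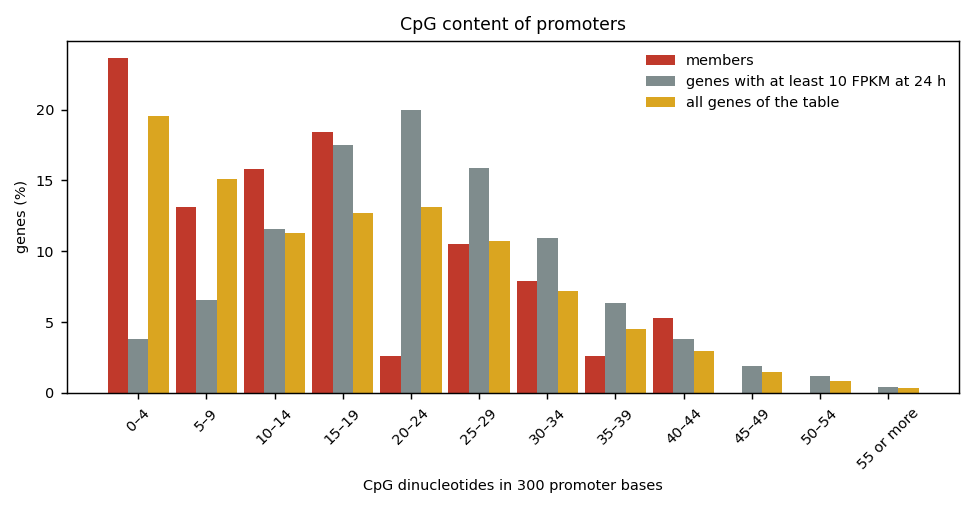
The x axis is the number of CpG dinucleotides in each promoter sequence and the y axis the share of genes in percent, for the 38 peaking genes with a promoter sequence (red) for 5309 genes with at least 10 FPKM at 24 h (grey) and for 16022 genes of the table (yellow). The peaking genes and all genes of the table have their tallest bar at 0 to 4 CpGs, and the genes with at least 10 FPKM at 24 h have theirs at 20 to 24.

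The same promoter bases were searched on both strands for 9 motifs. TATAAA, the core of the TATA box, was found in 9 of the 38 promoters (23.7%), against 6.84% of the genes with at least 10 FPKM at 24 h and 9.89% of all genes. GGGCGG, a GC box that itself holds a CpG, was found in 47.4%, against 67.7% and 52.8%. CCGGAAG, an Ets-type motif, was found in 13.2%, against 23.5% and 13.4%. The CCAAT box was found in 36.8%, against 40.9% and 38.6%, and the octamer ATGCAAAT in 0 of the 38, against 1.56% and 1.58%. The E-box CACGTG was in 10.5% (11.3% and 8.86%), the AP-1 motif TGANTCA in 5.26% (3.99% and 6.18%), the Tcf-type motif CTTTGAA in 2.63% (3.67% and 4.23%) and the cAMP response element TGACGTCA in 2.63% (3.92% and 2.67%). In Aire, Nqo1 and Nr0b1 the TATAAA began 25 to 35 bases before the start on the gene's own strand, which is 3 of 38 (7.89%) against 0.848% and 1.93%. This window was set after the positions in these genes were seen. The bases from 100 to 16 before the start of the 3 genes are shown because the motif stands there, with TATAAA in capitals.

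Aire (chr10:78043626-78043710, minus strand): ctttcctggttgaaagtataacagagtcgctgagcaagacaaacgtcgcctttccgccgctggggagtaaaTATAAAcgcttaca

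Nqo1 (chr8:107403221-107403305, minus strand): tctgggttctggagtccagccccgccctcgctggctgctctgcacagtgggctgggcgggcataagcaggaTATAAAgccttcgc

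Nr0b1 (chrX:86191675-86191759, plus strand): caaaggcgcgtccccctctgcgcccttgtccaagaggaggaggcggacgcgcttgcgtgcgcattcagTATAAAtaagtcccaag

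The motif begins 29 bases before the start in Aire and Nqo1 and 32 in Nr0b1. A match of letters is a description of the sequence and not a binding site.

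The question of the time course was how the genes behaved at the timepoints that did not choose them. Most were lower at 60 and 96 h than at 36 h, and few were higher. Their median was 14.6, 7.76, 4.98, 4.08 and 3.01 FPKM at 36, 48, 60, 72 and 96 h. The rule required a fall between 24 and 48 h, and the 36 h timepoint lies inside this interval. In 47 of the 51 genes the 36 h value lay between those of 48 and 24 h. Counts against 36 h thus hold part of the fall that the rule required and are not free of it. The steps from 60 to 72 h and from 72 to 96 h do not use 36 h. From 36 to 60 h, 34 of the 51 genes were lower and 2 (Fgfbp1 and Gbx2) higher, against 6.27% lower and 9.01% higher among all 12658 genes that reached 1 FPKM. Among genes with at least 10 FPKM at 24 h, 4.97% were lower and 0.763% higher. The median log2 ratio of the 51 genes was −1.29, and that of all genes was −0.05. From 36 to 96 h, 37 were lower and 2 (Egr1 and Fgfbp1) higher, against 13.4% lower and 18.1% higher among all genes and 14% and 3.56% among those with at least 10 FPKM at 24 h, with medians of −2.03 for the 51 genes and 0.00 for all.

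From 60 to 72 h, of 50 genes with 1 FPKM in the higher value, 7 were lower and 3 (Gm12690, Spink3 and Tgm1) higher, against 2.27% and 2.97% of all genes and 0.963% and 0.749% of those with at least 10 FPKM at 24 h. From 72 to 96 h, 12 of 47 were lower and 3 (Fgfbp1, Gm17210 and Spink3) higher, against 5.01% and 5.1% of all genes and 3.28% and 1.09% of those with at least 10 FPKM at 24 h. The median log2 ratios of these steps were −0.21 and −0.34 for the 51 genes and 0.02 for all genes at both. Successive steps share a timepoint, so a low value at 1 timepoint enters both. At 96 h, 13 of the 51 were under 1 FPKM, against 1.05% of genes with at least 10 FPKM at 24 h.

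Comparisons with the conditions of the rule are descriptions. At 36 h, 24 of the 51 genes were at least 2-fold lower than at 24 h and 0 higher, where all genes had 6.28% lower and 5.44% higher and genes with at least 10 FPKM at 24 h had 2.53% and 0.854%. The median of the 36 h values was 50.4% of the 24 h value for the 51 genes and 99.8% for all genes with at least 10 FPKM at 24 h. At 96 h, 32 of 50 were lower than at 0 h and 6 (Egr1, Eras, Fgfbp1, Icosl, Spink3 and Steap1) higher, where all genes had 16.4% lower and 16.8% higher and those with at least 10 FPKM at 24 h had 11.7% and 5.2%. In the time course, 24 h held the highest value of 47 genes. Aire and Foxd3 were highest at 36 h and Fgfbp1 and Steap1 at 96 h.

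**Figure D3:**
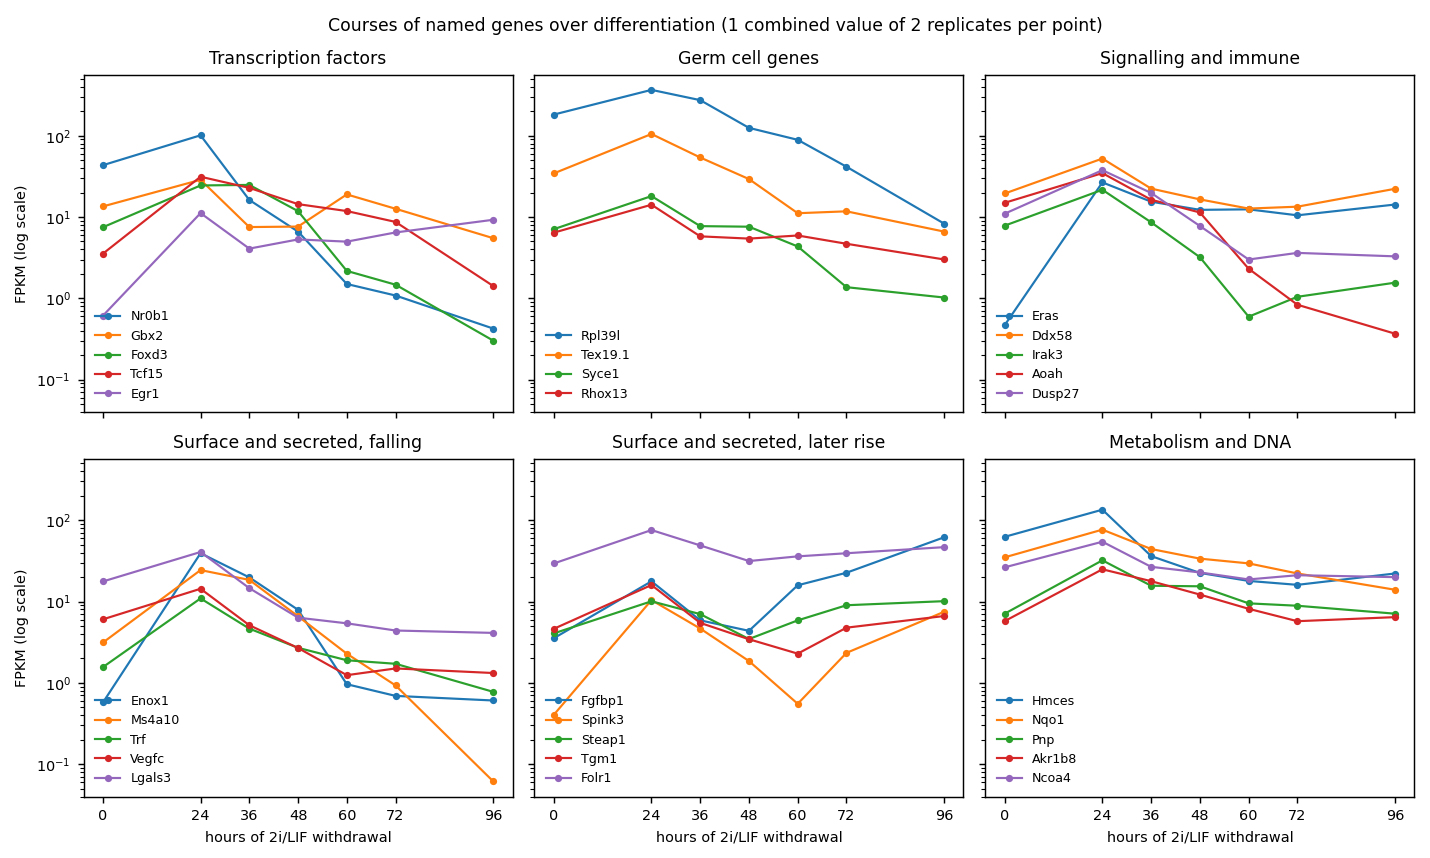
The 6 panels plot FPKM on a log scale against hours of 2i/LIF withdrawal for named genes of each role, with 1 point for the combined value of 2 replicates. Most lines fall from 24 h on, while Fgfbp1, Spink3, Steap1 and Tgm1 have a low point at 48 or 60 h and are higher again at 96 h.

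Factors of transcription made up the largest group by role. Nr0b1 (Dax1), an orphan nuclear receptor of the naive network on chromosome X, measured 43.5, 101, 16.2, 6.61, 1.5, 1.08 and 0.425 FPKM at 0, 24, 36, 48, 60, 72 and 96 h. It had the lowest 36 h value relative to 24 h of the 51 genes, at 16%, and its log2 ratio of 96 to 36 h was -5.25. This is the gene whose upstream TATAAA is printed above. Gbx2, a homeobox factor whose overexpression can sustain naive cells, measured 13.5, 28.7, 7.53, 7.63, 19, 12.6 and 5.50 FPKM. It was low at 36 and 48 h and high again at 60 h, where it reached 19 FPKM, before it was lower at 96 h.

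Foxd3, a forkhead factor needed in the epiblast, measured 7.5, 24.5, 24.8, 11.8, 2.17, 1.47 and 0.303 FPKM. Its 24 and 36 h values were nearly equal, and from 36 to 60 h its log2 ratio was -3.51. The non-coding gene Gm12690 lies 83288 bases from Foxd3 on chromosome 4 (99569500 to 99573011, with Foxd3 at 99656299 to 99658622) and measured 8.96, 23.4, 10.3, 3.13, 0.428, 1.71 and 0 FPKM. Foxd3 kept its 24 h level at 36 h, whereas Gm12690 was already lower by more than 2-fold at 36 h.

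Tcf15, a basic helix-loop-helix factor of cells primed to leave the naive state, measured 3.55, 31.3, 22.8, 14.4, 11.8, 8.70 and 1.42 FPKM, lower at each timepoint after 24 h. Egr1, an immediate early zinc finger factor induced by ERK, measured 0.614, 11.2, 4.09, 5.30, 4.98, 6.46 and 9.24 FPKM. It went from under 1 FPKM at 0 h to its peak and was higher again at 72 and 96 h, with a log2 ratio of 96 to 36 h of 1.18. Epas1 (HIF-2α) measured 15.3, 38.1, 11.2, 4.82, 1.60, 0.970 and 1.08 FPKM and Bnc2, a zinc finger protein, 7.92, 31.3, 16.1, 11.5, 6.34, 3.57 and 1.79 FPKM. Epas1 was the steeper of this pair by its values, at 2.84% of its 24 h value at 96 h against 5.72% for Bnc2.

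Tcea3, a transcript elongation factor, was the highest of this group with 59.5, 149, 94.2, 59.7, 42.1, 21.8 and 19.4 FPKM. Rbpj, the DNA-binding effector of Notch, measured 20.8, 47.5, 26.4, 21.5, 22.1, 27.2 and 16 FPKM, and Tle4, a co-repressor of the Groucho family, 27.4, 67.6, 45, 31.6, 13, 14.6 and 10.3 FPKM. Rbpj changed less than most later in the course, between 16 and 27.2 FPKM from 36 h on. Ino80, the ATPase of a chromatin remodeller, measured 9.29, 21.6, 12.4, 10.3, 9.84, 9.03 and 7.07 FPKM and was likewise within 2-fold between 36 and 96 h.

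Aire, the regulator of self-antigens in the thymus, needs care because of its place in the genome. It lies on the minus strand of chromosome 10 (78030022 to 78043610) and overlaps the 5′ part of Dnmt3l on the plus strand (78041947 to 78063622) by 1664 bases. Icosl begins 5680 bases beyond the end of Dnmt3l. The sources used here do not say whether the counting used strand, and without it reads from the overlap cannot be told apart. Aire measured 7.46, 25.8, 36.6, 12.8, 3.73, 1.99 and 0.858 FPKM over the time course, where Dnmt3l, the cofactor of the de novo methyltransferases, measured 34.7, 542, 412, 221, 87.5, 53.9 and 18.5 FPKM. Aire was 21.5% of Dnmt3l at 0 h, 4.77% at 24 h and between 1.26% and 23.4% over the 15 conditions, so the 2 genes were not in a fixed ratio. Icosl, the ligand of the T cell co-stimulator ICOS, measured 2.21, 11.8, 9.67, 5.35, 4.19, 4.59 and 4.48 FPKM.

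**Figure D4:**
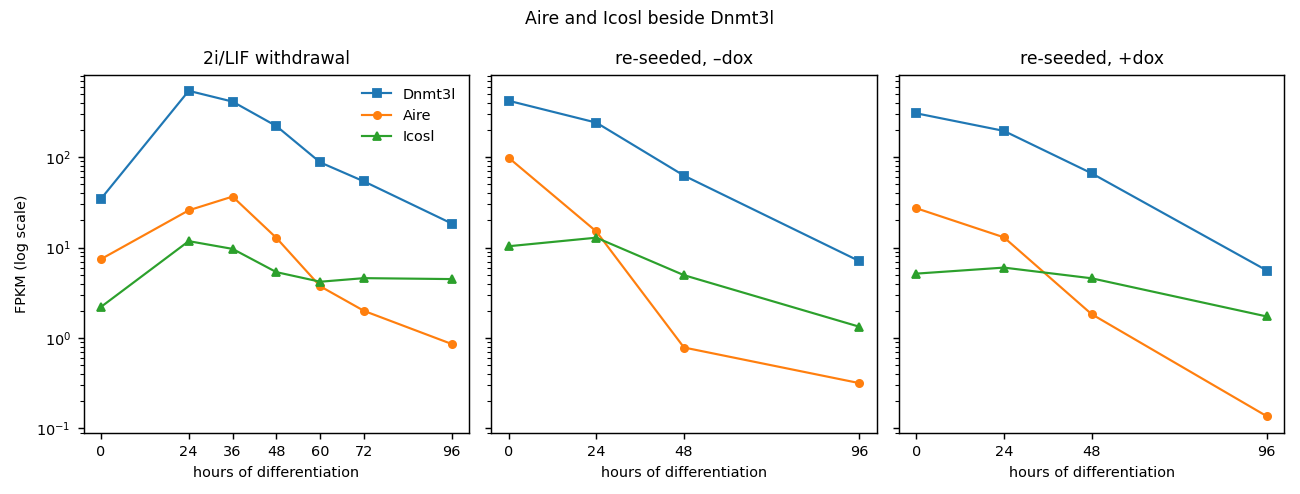
The 3 panels plot FPKM on a log scale against hours of differentiation for Dnmt3l (blue squares), Aire (orange circles) and Icosl (green triangles) in the time course, in cells re-seeded without dox and in cells re-seeded with dox, with 1 combined value of 2 replicates per point. Dnmt3l lies above both genes in all 15 conditions, and Aire comes nearest to it at 0 h and 0 h –dox.

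Of the 4 germ cell genes, Rpl39l and Tex19.1 were among the 5 most abundant of the 51 at 24 h. Rpl39l, a ribosomal protein gene best known from testis, measured 182, 366, 274, 125, 89.0, 41.5 and 8.32 FPKM, lower at each timepoint after 24 h. Its near copy Rpl39, which every cell uses, measured 2334, 1414 and 1531 FPKM at 0, 24 and 96 h, and how the authors' counting divided reads between the copies is not given in the sources used here. Tex19.1, which restrains transposons in germ cells, measured 34.5, 105, 54.0, 29.3, 11.1, 11.8 and 6.63 FPKM. Syce1, of the synaptonemal complex of meiosis, measured 7.10, 18.1, 7.73, 7.60, 4.34, 1.37 and 1.02 FPKM and the X-linked homeobox gene Rhox13 6.43, 14.2, 5.78, 5.43, 5.93, 4.69 and 3.01 FPKM. Rpl39l, Tex19.1 and Syce1 were more than 2-fold lower at 96 than at 36 h, and Rhox13 was not.

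Among the 7 genes of signalling and immunity, Eras, a Ras protein expressed in embryonic stem cells, had 1 of the lowest starts. It measured 0.472, 26.7, 15.4, 12.3, 12.4, 10.5 and 14.2 FPKM, from under 1 FPKM at 0 h to a level that stayed above 10 FPKM at every later timepoint. Ddx58 (RIG-I), a sensor of viral RNA, measured 19.5, 52.4, 22.4, 16.5, 12.7, 13.4 and 22.2 FPKM and Irak3, an inhibitor of Toll-like receptor signalling, 7.85, 21.6, 8.61, 3.20, 0.595, 1.04 and 1.56 FPKM. Irak3 had its lowest value at 60 h and Ddx58 had the same low point but a far shallower one. Aoah, which deacylates lipopolysaccharide, measured 15.0, 34.7, 16.3, 11.4, 2.31, 0.834 and 0.368 FPKM.

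Dusp27, named after the family of dual specificity phosphatases, measured 11, 37.7, 19.8, 7.76, 3.0, 3.62 and 3.28 FPKM. The exocyst gene Exoc3l measured 1.92, 21.4, 8.86, 6.12, 1.56, 1.56 and 0.943 FPKM, and Arhgef3 5.08, 11, 5.61, 4.58, 2.58, 2.23 and 1.42 FPKM. All 3 were at least 2-fold lower at 60 than at 36 h. Of the 7 genes, 5 were at least 2-fold lower at 96 than at 36 h.

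The 11 genes of the cell surface and the secreted space are described by whether they were higher at 96 h than at 48 h. This division was made after the values were seen. Of those that were higher, only Fgfbp1 was at least 2-fold higher at 96 than at 36 h. Those that were not higher come first. Enox1, an oxidase of the cell surface, measured 0.576, 39.3, 19.8, 7.91, 0.962, 0.691 and 0.607 FPKM, and Ms4a10, a membrane protein of the MS4A family, 3.14, 24.4, 18.5, 6.59, 2.28, 0.930 and 0.0617 FPKM. Both were at least 2-fold lower at 60 than at 36 h and ended under 1 FPKM, though their printed promoters stand at the 2 ends of CpG content. Trf (transferrin) measured 1.57, 10.9, 4.65, 2.70, 1.90, 1.72 and 0.776 FPKM and Vegfc, a growth factor of lymphatic vessels, 6.05, 14.4, 5.12, 2.68, 1.24, 1.5 and 1.32 FPKM. Lgals3 (galectin-3) measured 17.7, 40.7, 14.6, 6.34, 5.40, 4.40 and 4.12 FPKM, lower at each step.

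Those that were higher again late in the course are led by Fgfbp1, a carrier that releases Fgf ligands from the matrix, with 3.55, 17.7, 5.87, 4.36, 15.9, 22.6 and 61.6 FPKM. Its 96 h value was above its 24 h value, and its log2 ratio of 96 to 36 h was 3.39. Spink3, a secreted inhibitor of trypsin, measured 0.407, 10.4, 4.65, 1.85, 0.552, 2.34 and 7.47 FPKM, with a peak at 24 h, a low at 60 h and a log2 ratio of 96 to 72 h of 1.68. Steap1, a membrane protein related to metalloreductases, measured 4.07, 10.1, 7.0, 3.46, 5.87, 9.01 and 10.1 FPKM, so that its 24 and 96 h values were the same to 3 digits. Tgm1, a transglutaminase of cornified epithelium, measured 4.63, 16, 5.46, 3.44, 2.29, 4.77 and 6.63 FPKM, and Folr1, a folate receptor, 29.5, 75.8, 49.0, 31.5, 36.0, 39.3 and 46.7 FPKM.

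The 6 genes of metabolism and DNA had the highest median at 96 h among the 6 roles, at 10.5 FPKM, where their median at 24 h was 43.3 FPKM. Hmces, which shields abasic sites in DNA, measured 62.6, 135, 36.2, 22.5, 17.9, 16.1 and 22.1 FPKM, with most of its later decline already present at 36 h. Nqo1, a quinone reductase and a target of the oxidative stress response, measured 35, 76.7, 44.3, 33.7, 29.5, 22.2 and 14 FPKM, lower at each step. Pnp, a purine nucleoside phosphorylase with the overlapping copy Pnp2, measured 7.12, 32.2, 15.6, 15.4, 9.50, 8.88 and 7.10 FPKM, and Akr1b8, an aldo-keto reductase, 5.77, 24.9, 17.8, 12.2, 8.14, 5.73 and 6.43 FPKM. Ncoa4, the receptor for autophagy of ferritin, measured 26.4, 54.4, 26.7, 22.8, 18.7, 21.1 and 19.97 FPKM, which was between 18.7 and 26.7 FPKM from 36 h on. Gdpgp1, a GDP-glucose phosphorylase, measured 6.89, 19, 13.3, 8.03, 3.70, 2.83 and 1.91 FPKM.

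The 10 genes that are non-coding or have no role given here had the lowest median at 96 h, 0.997 FPKM, and all 10 were at least 2-fold lower at 96 than at 36 h. 4930566F21Rik measured 14.6, 36.8, 28.8, 11.1, 6.69, 4.08 and 1.5 FPKM and C330046G13Rik, whose CpG-free promoter is printed above, 7.39, 23.2, 10.2, 4.33, 1.09, 0.422 and 0.131 FPKM. 2410088K16Rik measured 3.05, 26.6, 25.5, 11.3, 14.6, 4.59 and 0.618 FPKM, with 24 and 36 h nearly alike. Gm17210, which lies 113069 bases from Ncoa4 on chromosome 14, measured 2.54, 12.4, 4.84, 0.382, 1.98, 0.340 and 1.38 FPKM. It was under 1 FPKM at 48 and 72 h and above it between them. RP23-152O2.3, Gm10324, BC028528, D16Ertd472e and 3110001I22Rik went from between 10.4 and 22.6 FPKM at 24 h to between 0.365 and 3.9 FPKM at 96 h. 3110001I22Rik overlaps Bfar on the same strand, and 13 of the 47 genes with a position overlap some other gene of the table, so reads could be shared. The share of overlapping genes among all genes was not computed.

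The re-seeded cells show what happened to these genes once the cells were returned to serum/LIF without OSKM. They differ from the time course in medium, in 48 h of further culture and possibly in surface, which cannot be told apart. The median of the 51 genes without dox was 13.8, 8.06, 3.76 and 2.47 FPKM after 0, 24, 48 and 96 h. The longer the cells had differentiated, the lower was this median. Between 0 h –dox and 24 h –dox, 21 of the 51 genes were lower and 0 higher, against 11.4% and 8.72% of all genes, with median log2 ratios of −0.80 and −0.03. Among genes with at least 10 FPKM at 24 h, 5.66% were lower and 2.92% higher.

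Between 24 h –dox and 48 h –dox, 25 of the 51 were lower and 3 (Ddx58, Fgfbp1 and Steap1) higher, against 7.49% and 7.64% of all genes and 4.49% and 3.04% of those with at least 10 FPKM at 24 h. Between 48 h –dox and 96 h –dox, 17 of 44 were lower and 5 (Arhgef3, Dusp27, Epas1, Lgals3 and Vegfc) higher, against 9.94% and 12.3% of all genes and 8.41% and 2.99% of the same reference. The median log2 ratios of the 51 genes were −0.84 and −0.65, and those of all genes 0.01 and 0.00. In 28 of the 51 genes each of the 4 values was lower than the one before, against 18.5% of genes with at least 10 FPKM at 24 h. In +dox the same held for 19, against 13.7%.

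Set beside the time course, and as a description because the rule used 0 and 24 h, 25 of the 51 genes were higher in 0 h –dox than at 0 h in 2i/LIF and 1 (Aoah) lower, where all genes had 12% higher and 10.1% lower and those with at least 10 FPKM at 24 h had 5.07% and 5.1%. In 24 h –dox, 37 were lower than at 24 h and 1 (Egr1) higher, where all genes had 10.6% lower and 14.9% higher and those with at least 10 FPKM at 24 h had 8.39% and 2.98%. Of the 51 genes, 35 had their highest value of all 15 conditions at 24 h. In 5 (Aire, Eras, Gbx2, Ino80 and Rbpj) the highest was 0 h –dox, and Aire stood there at 98.5 FPKM against 25.8 FPKM at 24 h. Egr1, Icosl and Tcf15 were highest in 24 h –dox, Folr1 and Steap1 in 48 h –dox, and Lgals3 in 96 h –dox. Hmces was highest in 0 h +dox, Spink3 in 24 h +dox, Tgm1 in 96 h +dox and Fgfbp1 at 96 h.

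The effect of dox was compared within each time. Dox was given together with OSKM induction, so an effect of the drug alone cannot be told apart. After 0 h of differentiation more of the 51 genes were lower with OSKM than higher. In 0 h +dox, 17 were lower and 1 (Trf) higher than in 0 h –dox, against 5.61% and 3.62% of all 12751 genes and 2.26% and 1.05% of genes with at least 10 FPKM at 24 h. The median log2 ratio was −0.47, and that of all genes 0.05. After 48 h of differentiation the larger count was on the other side. In 48 h +dox, 11 of 49 were higher and 4 (Akr1b8, Fgfbp1, Folr1 and Steap1) lower than in 48 h –dox, against 6.56% and 6.46% of all genes and 3.33% and 1.5% of those with at least 10 FPKM at 24 h. The medians were 0.30 and −0.02. With a minimum of 5 FPKM in the higher value, 5 genes were higher and 3 lower after 48 h. The same minimum left 16 lower and 1 higher after 0 h. The shares of all genes at this minimum were not computed.

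After 24 h, 3 genes (4930566F21Rik, Nr0b1 and Spink3) were higher and 3 (3110001I22Rik, Gm12690 and Icosl) lower in +dox, against 2.87% and 3.4% of all genes, and against 0.931% and 0.916% of those with at least 10 FPKM at 24 h. After 96 h, 9 of 36 were lower and 1 (Gm17210) higher, against 11.1% and 6.67% of all genes, and against 3.05% and 3.99% of those with at least 10 FPKM at 24 h. The median log2 ratios were −0.22 and 0.02 after 24 h and −0.39 and −0.01 after 96 h for the 51 genes and all genes. Over the 4 times, 12 of the 51 were higher in +dox at 1 or more, against 13.7% of all genes that reached 1 FPKM and 7.37% of those with at least 10 FPKM at 24 h. At 1 or more times 25 were lower, against 18.4% and 6.23%. Of the 51 genes, 2 (Aire and C330046G13Rik) were in both counts and 16 in neither. The differences between the 4 times were not tested.

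**Figure D5:**
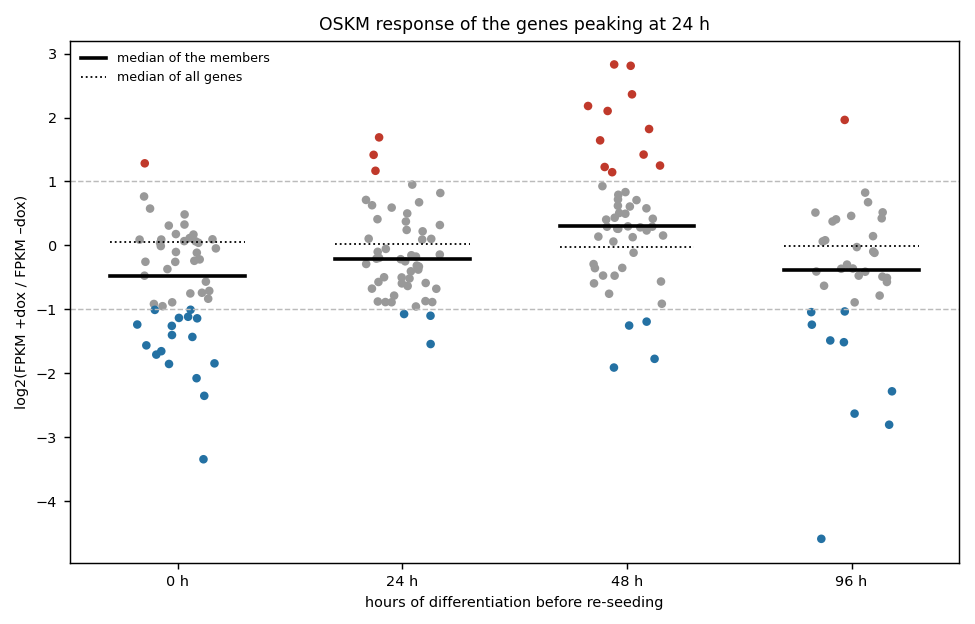
Each point is 1 of the 51 genes that reached 1 FPKM with or without dox and was above 0 in both, placed by the log2 ratio of +dox to –dox on the y axis and by the hours of differentiation before re-seeding on the x axis, in red where at least 2-fold higher and blue where at least 2-fold lower. The medians of these genes (solid bars) lie at −0.47, −0.22, 0.30 and −0.39 after 0, 24, 48 and 96 h, and those of all genes (dotted) between −0.02 and 0.05.

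Nr0b1 had the highest ratio of +dox to –dox after 48 h. It measured 79.1, 8.37, 2.29 and 0.814 FPKM in 0, 24, 48 and 96 h –dox and 68.0, 27.0, 16.3 and 0.946 FPKM in the matched +dox cells. The log2 ratios were -0.22, 1.69, 2.83 and 0.22, so the difference lay after 24 and 48 h and not at the ends. The non-coding 4930566F21Rik measured 33.5, 4.97, 0.580 and 0.256 FPKM in –dox and 34.4, 11.2, 4.06 and 0.617 FPKM in +dox. Its log2 ratios were 0.04, 1.17 and 2.81 after 0, 24 and 48 h, and after 96 h both values were under 1 FPKM. Spink3 measured 5.20, 9.15, 6.38 and 6.10 FPKM in –dox and 8.83, 24.4, 22.5 and 4.10 FPKM in +dox, where it was highest after 24 and 48 h.

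Hmces measured 180.4, 44.1, 28.7 and 24.9 FPKM in –dox and 189, 72.2, 89.6 and 27.6 FPKM in +dox, with a log2 ratio of 1.64 after 48 h. Epas1 measured 14.7, 2.72, 1.05 and 2.63 FPKM and 16.5, 5.25, 5.41 and 2.46 FPKM, with 2.36 after 48 h. Rbpj measured 75.2, 49.1, 26.4 and 20.9 FPKM and 58.2, 47.3, 58.3 and 15.7 FPKM, so that in +dox it was as high after 48 h as after 0 h, while it was lower with each time in –dox. Aoah was also higher after 48 h, at 3.99 against 0.930 FPKM, and Arhgef3 at 3.79 against 1.42 FPKM.

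Egr1 had the largest difference after 0 h. It measured 16.1, 25.8, 8.98 and 10.2 FPKM in –dox and 1.58, 13.3, 17.1 and 6.56 FPKM in +dox, a log2 ratio of -3.34 after 0 h, with the other times within 2-fold. Gbx2 measured 29.0, 13, 5.02 and 1.23 FPKM in –dox and 5.68, 7.05, 7.13 and 1.14 FPKM in +dox, with -2.35 after 0 h. In –dox Gbx2 was lower at each later time, whereas in +dox it lay between 5.68 and 7.13 FPKM up to 48 h. Dusp27 measured 18.8, 4.53, 0.779 and 2.3 FPKM and 4.46, 4.23, 0.296 and 0.473 FPKM, lower in +dox after both 0 and 96 h.

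Tcf15 measured 27.2, 33.0, 8.93 and 0.367 FPKM in –dox and 12.6, 28.8, 14.7 and 0.362 FPKM in +dox, with a log2 ratio of -1.12 after 0 h. This formative gene was lower with OSKM after 0 h and within 2-fold afterwards. Foxd3 measured 14, 8.06, 2.07 and 0.107 FPKM in –dox and 7.84, 4.39, 2.28 and 0.0854 FPKM in +dox and was within 2-fold at all times by the criterion used.

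Aire measured 98.5, 15.1, 0.785 and 0.317 FPKM in –dox and 27.2, 13, 1.84 and 0.136 FPKM in +dox, lower in +dox after 0 h (-1.85) and higher after 48 h (1.23), where both values were under 2 FPKM. Dnmt3l, which shares the locus, measured 421, 241, 62.5 and 7.09 FPKM and 306, 195, 66.4 and 5.57 FPKM. Icosl measured 10.3, 12.9, 4.95 and 1.33 FPKM in –dox and 5.15, 6.0, 4.57 and 1.73 FPKM in +dox, lower in +dox after 0 and 24 h. Trf was the 1 gene higher in 0 h +dox, at 10.6 against 4.34 FPKM.

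Several surface and secreted genes stood above their 24 h level in re-seeded cells. Folr1 measured 102, 139, 211 and 37.2 FPKM in –dox and 98.9, 75.7, 61.7 and 15.8 FPKM in +dox, with log2 ratios of -1.77 after 48 h and -1.24 after 96 h. Steap1 measured 19.99, 14, 44.1 and 8.45 FPKM and 19.8, 10.6, 19.3 and 5.95 FPKM, and Fgfbp1 5.62, 9.0, 38.2 and 27.9 FPKM and 5.89, 4.87, 16 and 49.4 FPKM. Among the –dox cells all 3 were highest after 48 h, and they were lower in +dox at that time. Tgm1 measured 12.6, 13.7, 26.6 and 24.8 FPKM and 18.9, 12.3, 31.9 and 35.5 FPKM, within 2-fold at all times.

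Lgals3 measured 45.6, 18.1, 33.7 and 146 FPKM in –dox and 38.6, 28.0, 36.8 and 52.2 FPKM in +dox, with a log2 ratio of -1.49 after 96 h. Its high value in 96 h –dox stood beside a summed fibroblast marker level of 650 FPKM there, against 386 and 459 FPKM in the 48 h –dox and 96 h +dox cells. Of the 11 markers, 7 were higher after 96 h than after 48 h without dox, Col1a1 and Col1a2 among them. These collagens were at 33.2 and 86.0 FPKM in 96 h –dox, where 48 h –dox had 4.97 and 4.32 FPKM and 96 h +dox had 3.47 and 13.2 FPKM. Dcn, Lum, Thy1 and Twist1 were lower after 96 h than after 48 h without dox. Sparc made up 405 FPKM of the sum of 650 FPKM in 96 h –dox. At 0 h, where the marker sum was 1517 FPKM, Lgals3 was at 17.7 FPKM. The part of fibroblast RNA in the value of Lgals3 was not tested. Vegfc, at 4.68 against 1.49 FPKM, was likewise higher after 96 h than after 48 h without dox.

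Of the germ cell genes, Tex19.1, Rpl39l and Rhox13 were lower in +dox after 96 h. Tex19.1 measured 36.0, 26.2, 9.05 and 13.3 FPKM in –dox and 16.4, 30.5, 12.2 and 2.15 FPKM in +dox, with log2 ratios of -1.13 after 0 h and -2.63 after 96 h. Rpl39l measured 93.5, 48.5, 5.48 and 3.09 FPKM and 87.1, 40.8, 8.36 and 1.5 FPKM, and Rhox13 was 0.922 FPKM in 96 h +dox against 2.63 FPKM in –dox. Rpl39, the near copy, lay between 1595 and 2446 FPKM in the re-seeded cells. Enox1 was lower in +dox after 0 h (3.73 against 12.2 FPKM) and after 96 h (0.0494 against 1.19 FPKM), the latter near the floor of 1 FPKM. Akr1b8 was lower after 48 h (1.11 against 4.19 FPKM) and after 96 h (1.03 against 7.20 FPKM). C330046G13Rik measured 21.3, 3.97, 0.451 and 0.101 FPKM in –dox and 7.20, 3.44, 1.07 and 0 FPKM in +dox, lower after 0 h and higher after 48 h, where its higher value was 1.07 FPKM.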

How the data were processed

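RNA-seq reads of 30 samples were mapped to mm10 by the authors with TopHat2 2.0.14, and Gencode M4 transcripts of at least 200 bp were quantified with Cuffquant and Cuffdiff of Cufflinks 2.2.1. Cuffdiff merged both replicates, so that the FPKM values the authors deposited are 1 per gene in each condition. The library normalization, read counts and depth are not given in the sources used here. The deposited table also holds the authors' calls of dox response and cluster, which were not used.

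The values were used as deposited in Python 3.11.15 with numpy 2.4.6 and pandas 2.3.3, and plotted with matplotlib 3.10.9. A difference was counted at 2-fold where the larger value reached 1 FPKM, with no pseudocount, and log2 medians left out genes at 0. No test was possible with 1 combined value per condition. The steps were tested on simulated data with larger changes and higher levels than these limits. That run does not cover calls near 2-fold or near 1 FPKM. The genes and the lists were chosen with earlier results of these data known.

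The naming rule took the 25 genes with the largest peak ratio, the 5 most abundant at 24 h, genes in a list, the 3 largest changes in each direction with dox at 10 FPKM or more, the 3 highest ratios of 96 h and of 24 h –dox to 24 h, and 3 genes on each side of each threshold. It covers 39 of the 51 genes, and 1 gene that is in the counts is not reported here by name. Promoters came from RefSeq (1 per gene, GRCm38.p6) and positions from Gencode M21. Alternatives were tried for the fold, the minimum, a pseudocount, the scaling, the names left out and the later timepoint.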

Additional observations from a re-analysis of the deposited data

How the results depend on the processing

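The number of peaking genes depended on the thresholds. It was 194 at 1.5-fold and 12 at 3-fold in place of 2-fold, 87 with a minimum of 5 FPKM, 26 with 36 h in place of 48 h and 120 with 60 h. It stayed within 1.5 times of 51 under the other alternatives: adding 1 FPKM lost 7 genes (3110001I22Rik, Aire, Akr1b8, Arhgef3, Egr1, Foxd3 and RP23-152O2.3), adding 0.1 FPKM lost 0, and median-ratio scaling gained Gm19705 and L3mbtl2. The counts that moved by more than 1.5 times are given as higher or lower genes. At 3-fold, 60 against 36 h had 0 higher and 22 lower, 72 against 60 h 3 lower, 96 against 72 h 6 lower, and 96 against 36 h 1 higher. At 1.5-fold, 72 against 60 h had 5 higher and 14 lower and 96 against 72 h 20 lower. With a minimum of 5 FPKM, 72 against 60 h had 0 higher and 2 lower and 96 against 72 h 3 lower. With 1 FPKM added, these had 1 higher and 4 lower, and 7 lower. Without dox, 24 against 0 h had 3 higher and 32 lower at 1.5-fold and 12 lower at 3-fold. The step from 24 to 48 h had 6 higher at 1.5-fold, 14 lower at 3-fold and 16 lower with 5 FPKM. The step from 48 to 96 h had 2 higher at 3-fold, 1 higher and 9 lower with 5 FPKM, and 3 higher with 1 FPKM added. With dox against without, 0 h had 2 higher at 1.5-fold, and 0 higher and 7 lower at 3-fold. After 24 h there were 9 higher and 15 lower at 1.5-fold, 1 higher and 0 lower at 3-fold, 1 lower with 5 FPKM and 0 lower with 1 FPKM added. After 48 h there were 18 higher and 7 lower at 1.5-fold, 7 higher and 2 lower at 3-fold, and 5 higher with 5 FPKM. After 96 h there were 3 higher at 1.5-fold, 4 lower at 3-fold, 3 higher and 16 lower with no minimum, 0 higher and 4 lower with 5 FPKM, 0 higher with 1 FPKM added and 2 higher after scaling. Fewer genes pass by construction at a higher fold or minimum. No paired analysis was possible because the deposited values combine both replicates, and for the same reason no replicate could be left out. Read depth is unknown.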
